A study of Mus musculus with 12 samples.

Results

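Collagens and laminins are the structural proteins of the extracellular matrix, and their genes were followed here across sorted pontine neurons of the mouse embryo. The members were taken by symbol: every gene of the count table named Col, a number, the letter a and a number, and every laminin alpha, beta and gamma chain from Lama1 to Lamc3. The rule found 55 of the 23079 genes in the table, 44 collagens and 11 laminin chains. They were split by protein class into 8 basement membrane collagens, 11 laminin chains, 11 fibrillar collagens and 25 other collagens. The other collagens comprised 9 fibril-associated collagens, 4 membrane-spanning collagens, and 12 beaded, network-forming and further collagens.

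The 12 RNA-seq libraries came from the pontine nucleus, the hindbrain relay between cortex and cerebellum, of CD-1 mouse embryos at E18.5. Neurons carrying a genetic label were dissected and sorted at 2000 cells per replicate, and RNA of 1000 cell equivalents was amplified. Math1tdTomato (n = 6) is the reference of the series. Math1, also called Atoh1, is the bHLH gene of the rhombic lip from which these neurons arise, and tdTomato is a red fluorescent protein. In Hoxa5tdTomato (n = 3) the column names hold Hoxa5 and cre. In Math1Hoxa5-IRES-GFP (n = 3) they hold Math1, Cag, lsl and Hoxa5, the usual parts of an allele in which a stop cassette is removed by Cre so that a strong promoter can drive a gene. Hoxa5 is a homeobox transcription factor of the posterior pontine domain. All groups share strain, stage and tissue, and the labels do not give the full alleles, the sorting gate, or whether a replicate was 1 embryo or a pool. The p-values therefore measure the spread between these samples only. Column names split the references into 3 that hold creErt2 and 3 that hold tdT. They are called creErt2 references and tdT references here. By the words of the names, the creErt2 references were set with Hoxa5tdTomato and the tdT references with Math1Hoxa5-IRES-GFP, a pairing that no label states. Each member is given as a count scaled to the normalized library size (CPM), and levels of different genes are compared only per kilobase of gene (RPKM).

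Collagen chains wind together into a triple helix, and laminin molecules are crosses of 1 alpha, 1 beta and 1 gamma chain. Type IV collagen and laminin make the 2 polymer sheets of every basement membrane. In the brain these membranes line blood vessels, where endothelial cells and pericytes make them, and the pial surface, while fibrillar collagens are chiefly products of fibroblasts. Some collagens are also made by neurons, and laminins guide growing axons and migrating neurons.

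For the type IV pair and the 2 laminin beta chains, on which the basement membrane results turn, promoter letters were read from RefSeq (GRCm38.p6), which had an entry for 40 of the 55 members. Col4a1 (RefSeq span chr8:11198423-11312889) and Col4a2 (chr8:11312805-11449287) lie head to head, and the gene spans overlap at their ends. The promoter table gives 1 start a gene, which for Col4a1 lies inside that span, 21 bases from the Col4a2 start. The 22 bases from the Col4a2 start to this Col4a1 start, on the plus strand, and the bases before Lamb1 and Lamb2 that lie in no annotated gene are shown. Together they set the shared start of the type IV pair beside the separate starts of the 2 laminin beta chains. Capitals mark a GC box (GGGCGG) or a CCAAT box (CCAAT).
Col4a1 and Col4a2, chr8:11312805-11312826: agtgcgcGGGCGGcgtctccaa
Lamb1, chr12:31265093-31265145, plus strand: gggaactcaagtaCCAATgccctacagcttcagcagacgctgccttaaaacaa
Lamb2, chr9:108479612-108479846, plus strand: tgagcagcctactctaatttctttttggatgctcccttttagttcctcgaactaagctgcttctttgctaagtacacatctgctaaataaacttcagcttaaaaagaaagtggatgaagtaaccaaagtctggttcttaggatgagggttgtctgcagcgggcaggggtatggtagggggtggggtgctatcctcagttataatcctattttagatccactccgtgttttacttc
The GC box, the CCAAT box, the TATA box with the letters TATAAA and a PBX-HOX site with the letters TGATTNAT were searched on both strands in the 250 bases before each start of the promoter table. The GC box was found 2 times for Col4a2 and 2 times for Lamb1 and in 32.7% of all 32851 promoter entries. The CCAAT box was found once each for Col4a1, Col4a2 and Lamb1 and in 33.8% of entries. The TATA box (12.4% of entries) and the PBX-HOX site (2.82% of entries) had no match in the 4 windows, and Lamb2 had no match to any of the 4 motifs. These matches describe the letters only.

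The libraries held 9973484 to 29820776 counts. The creErt2 references and Hoxa5tdTomato held at most 13302076, and the tdT references and Math1Hoxa5-IRES-GFP at least 22355961, and the sets and their depths thus cannot be told apart. A count of 3, taken as the floor of detection, equals 0.107 to 0.274 CPM, a limit of counting error only. Hoxa5 was at 4.35 to 32.2 CPM in the references and at 127, 222 and 119 CPM in Hoxa5tdTomato. In the libraries labelled Math1Hoxa5-IRES-GFP it was at 9.73, 16.8 and 82.0 CPM, so that replicates 1 and 2 lay within the range of the references. Replicate 3 of that group had the fewest genes with a count, 13074, against 14779 to 16290 in the libraries outside that group. Calls that rest on this group are therefore also given without replicate 3, and without replicates 1 and 2. The latter leaves 1 library with no spread of its own, so no p-value is given for it.

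In the 6 references the highest members were collagens outside the basement membrane. Col11a1, a fibrillar collagen that templates thin fibrils, stood first at 22.1 ± 5.17 RPKM (SD, n = 6), 34.0% of the summed RPKM of all 55 members. Col5a1, its fibril-initiating relative, followed at 7.43 ± 2.34. Col9a3, a chain of the fibril-surface collagen IX, was at 6.36 ± 2.31, and Lamc1, the common laminin gamma chain, at 5.48 ± 0.669. These 3 neighbours did not differ beyond their spread. Col12a1, which binds fibril surfaces, was at 3.82 ± 1.45, and Lama1, the laminin alpha chain of early basement membranes, at 2.27 ± 1.17. Col6a6 (2.02 ± 0.589), Col26a1 (1.82 ± 1.29) and the neuronal membrane collagen Col25a1 (1.61 ± 0.489) were the only others at 1 RPKM or more, 9 of 55 in all. In Hoxa5tdTomato 21 members reached 1 RPKM, and in Math1Hoxa5-IRES-GFP 12 did. Of the 55 members, 23 had a count in every one of the 12 libraries.

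**Figure D1:**
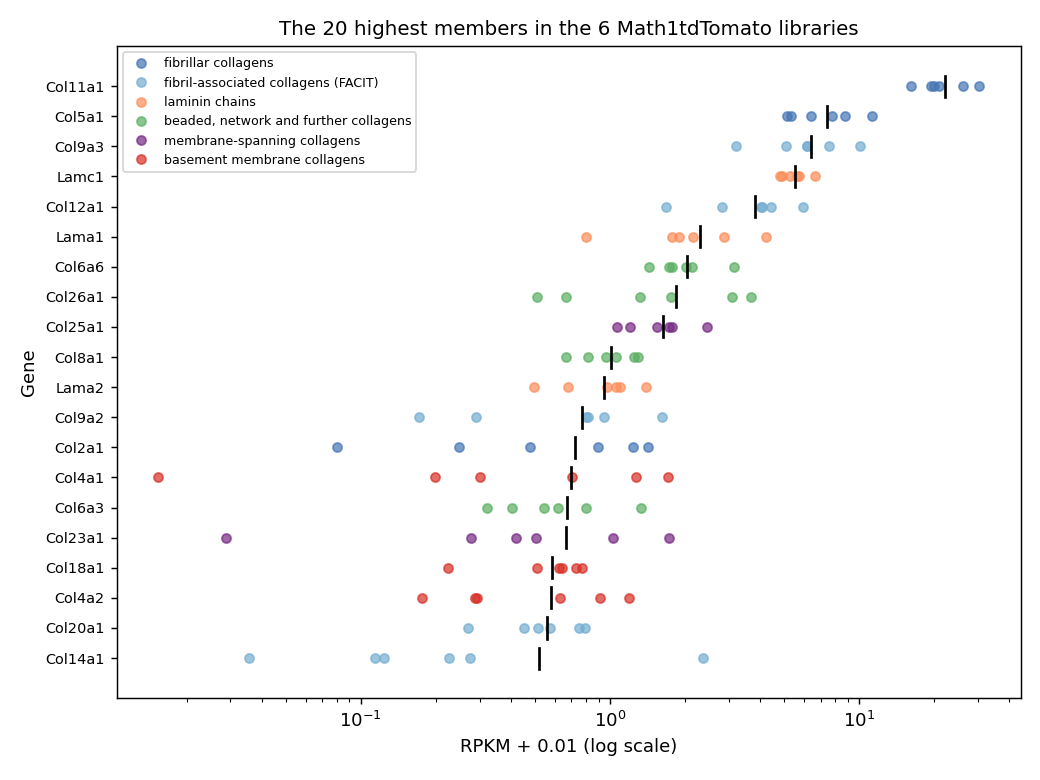
Level per length (RPKM + 0.01, log axis) of the 20 highest members in the 6 Math1tdTomato libraries, 1 point per library and a black bar at the mean, coloured by class. Col11a1 is above the others in every library, and Col4a1 and Col14a1 are among the members whose 6 points spread widest.

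Several chains stood far above the partners they are known to assemble with. Col11a1 at 22.1 RPKM compared with 0.470 for Col11a2 and 0.714 for Col2a1, the other chains of type XI collagen. Col5a1 at 7.43 RPKM compared with 0.429 for Col5a2. Col9a3 at 6.36 RPKM compared with 0.765 for Col9a2 and 0.0404 for Col9a1. For the laminins, the summed gamma chains were at 5.77 ± 0.627 RPKM and the summed alpha chains at 3.69 ± 1.5, but the summed beta chains at only 0.680 ± 0.336 (SD, n = 6). In Hoxa5tdTomato the same sums were 8.83 ± 1.23 for gamma, 11.2 ± 1.38 for alpha and 3.34 ± 0.985 for beta (SD, n = 3). In Math1Hoxa5-IRES-GFP they were 8.23 ± 0.446, 3.84 ± 3.13 and 0.486 ± 0.376 RPKM. The beta chains were the lowest laminin arm in each group.

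Of the 55 members, 49 passed the filter on low counts and were tested. Col4a6, Lamb3, Col3a1, Col16a1, Col13a1 and Col8a2 were not. In Hoxa5tdTomato against the 6 references, 2 of the 49 passed an adjusted p of 0.05 (edgeR quasi-likelihood test, Benjamini-Hochberg over 14732 genes), both higher: Col4a1 and Lamb1. Over all genes tested, 1.73% passed. The median log2 change of the members was 1.22, with 40 positive and 9 negative, beside 0.0049 over all genes. In 16 of 49 members (32.7%) every Hoxa5tdTomato library lay above every reference, beside 7.15% of all genes, and in 0 every library lay below, beside 6.93% of all genes. Col1a1, Col1a2, Col5a3, Col24a1, Col27a1, Col4a5, Lama5 and Lamc3 passed the filter only through the Hoxa5tdTomato libraries. So did Col6a1, Col6a4, Col6a5, Col7a1, Col9a1, Col10a1, Col22a1 and Col28a1. High values of these 16 members in that group are thus partly set by the filter. The same was therefore counted over the 33 that pass without the Hoxa5tdTomato libraries. There 25 were positive, the median was 0.85, and 11 had no overlap, all higher, beside 6.35% of all genes that pass in this way. In Math1Hoxa5-IRES-GFP against the references 0 of 49 passed, beside 1.84% of all genes. At an unadjusted p under 0.05 there were 10 of the 49 members and 2456 of the 14732 genes. DESeq2 called 5 members, and its share over all genes is not given here. The median log2 change of the members by edgeR was -0.02, with 24 positive and 25 negative. It was the same with the 3 members that had 0 counts in this group placed at their bound. Of the 49, 1 lay above all references (3.11% of all genes) and 4 lay below (3.27%). Both comparisons share the same 6 references. In these bulk samples, fewer cells of a type and less RNA per cell cannot be told apart.

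**Figure D2:**
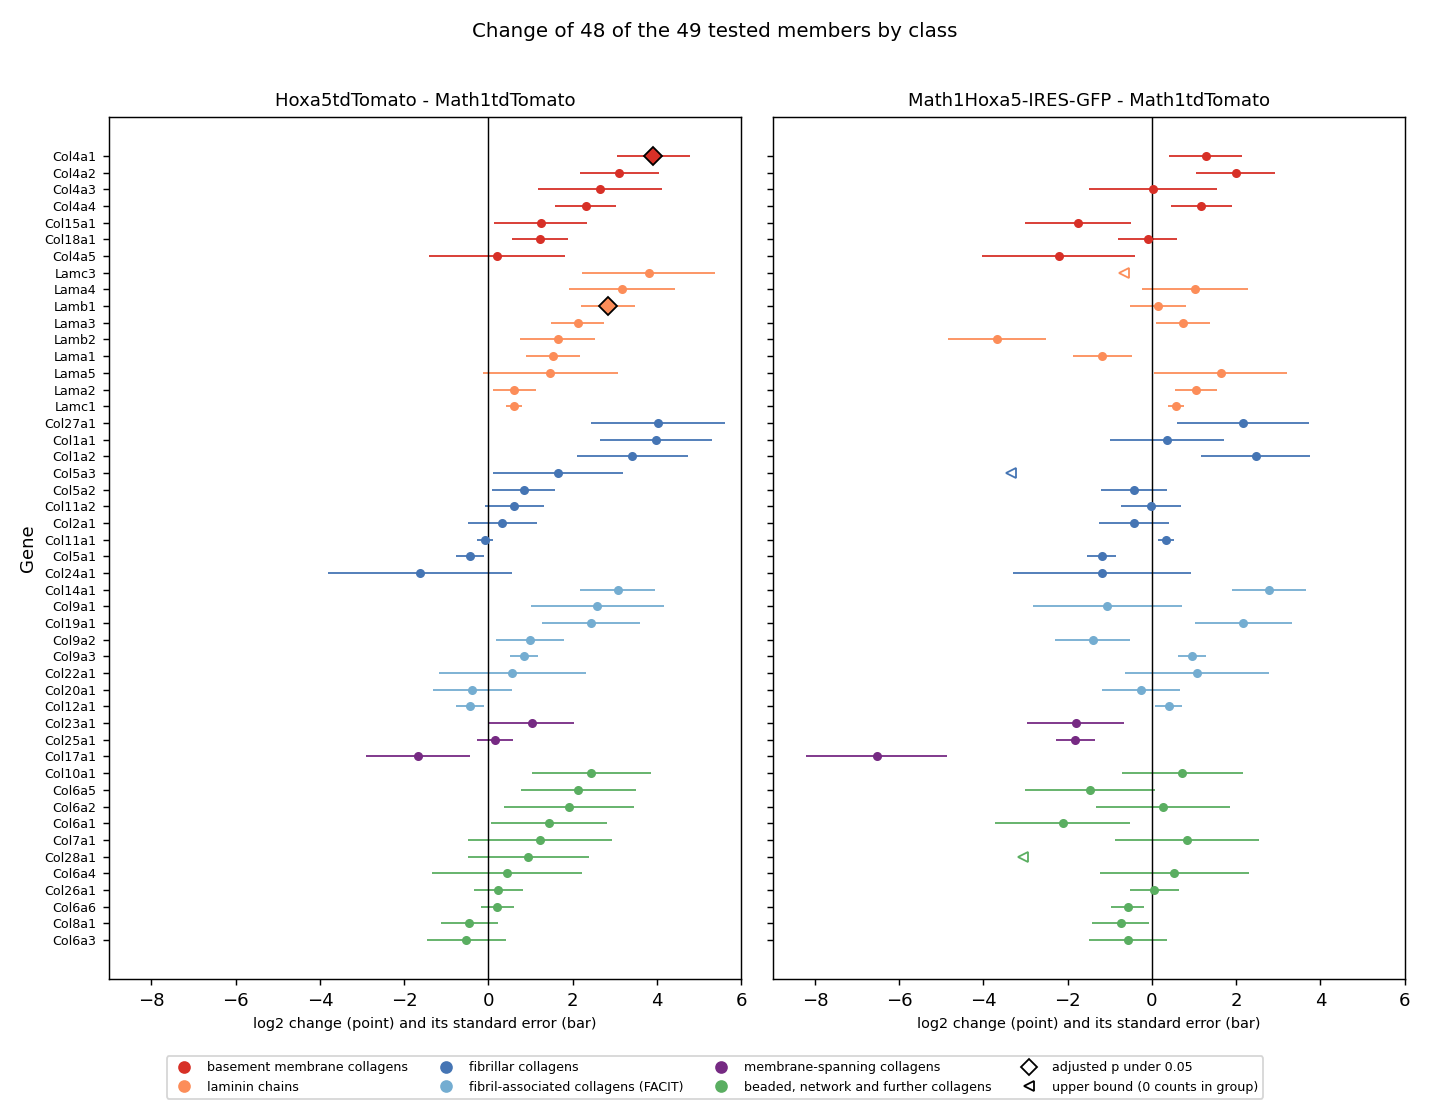
Log2 change of 48 of the 49 tested members against the 6 Math1tdTomato libraries, as points with standard errors, in Hoxa5tdTomato (left) and Math1Hoxa5-IRES-GFP (right), grouped by class. Diamonds mark an adjusted p under 0.05, which Col4a1 and Lamb1 reach on the left and none reaches on the right, and open triangles mark the 3 members with 0 counts in Math1Hoxa5-IRES-GFP at the bound that 3 counts allow.

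Among the basement membrane collagens, Col4a1 rose in Hoxa5tdTomato. With Col4a2 it forms the common type IV network. Col4a1 was at 4.62, 1.24 and 11.2 CPM in the creErt2 references and 0.0357, 8.33 and 1.93 in the tdT references, against 51.1, 62.4 and 91.0 CPM in Hoxa5tdTomato. Every Hoxa5tdTomato library lay above every reference. The log2 change was 3.91 ± 0.87 (SE), adjusted p = 0.029. Within the set of creErt2 references it was 3.58 ± 1.14, adjusted p = 0.27. Math1Hoxa5-IRES-GFP replicates were at 5.12, 25.4 and 2.21 CPM, with only replicate 2 above the references.

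Col4a2 was at 1.78, 1.07 and 3.98 CPM in the creErt2 references, 1.82, 7.56 and 5.79 in the tdT references and 35.9, 25.5 and 34.4 in Hoxa5tdTomato. The groups did not overlap, and the log2 change of 3.11 ± 0.94 had an adjusted p of 0.11. In Math1Hoxa5-IRES-GFP it was at 1.49, 42.4 and 0.10 CPM, so that 1 library was above all others and 1 below all others. The log2 change there was 1.99 ± 0.94 (adjusted p = 0.30) with all 3 replicates and -2.19 without replicate 2. Reads from the short overlap of Col4a1 and Col4a2 at their starts, and of Col4a3 and Col4a4 at theirs, could count for either gene, since no source used here gives the strand setting.

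The 7 tested basement membrane collagens were all positive in Hoxa5tdTomato against the references, with a median log2 change of 2.30 and 1 call. Without Col4a5, which passed the filter only through the Hoxa5tdTomato libraries, the median of the other 6 was 2.47. Col4a5, a chain of the kidney and smooth muscle networks, was at 0.799, 0.178 and 0 CPM in the creErt2 references and 0.0357, 0.136 and 1.16 in the tdT references. It was at 0.889, 0 and 0.457 CPM in Hoxa5tdTomato and 0.233, 0 and 0 in Math1Hoxa5-IRES-GFP, with overlap. In Hoxa5tdTomato it was positive by only 0.20 and turned negative when creErt2 reference 3, Hoxa5tdTomato 1 or tdT reference 1 was left out. Col4a4, a chain of the type IV network of kidney and other specialized membranes, was at 3.56, 5.93 and 7.78 CPM in Hoxa5tdTomato and 0.498 to 2.40 in the references, without overlap. Its log2 change of 2.30 had an adjusted p of 0.12. Col18a1, the source of endostatin, was at 13.3, 8.28 and 4.57 CPM against 1.39 to 4.97, with overlap. In Math1Hoxa5-IRES-GFP it was at 2.42, 7.33 and 0.652 CPM. Col15a1 and Col4a3 also overlapped in Hoxa5tdTomato. In Math1Hoxa5-IRES-GFP the 7 split into 4 positive and 3 negative, median 0.02, with 0 calls. Summed over the 8 genes, basement membrane collagens were at 7.42 to 22.7 CPM in the references and 111, 115 and 144 in Hoxa5tdTomato. In Math1Hoxa5-IRES-GFP the sums were 15.8, 77.2 and 5.57 CPM.

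**Figure D3:**
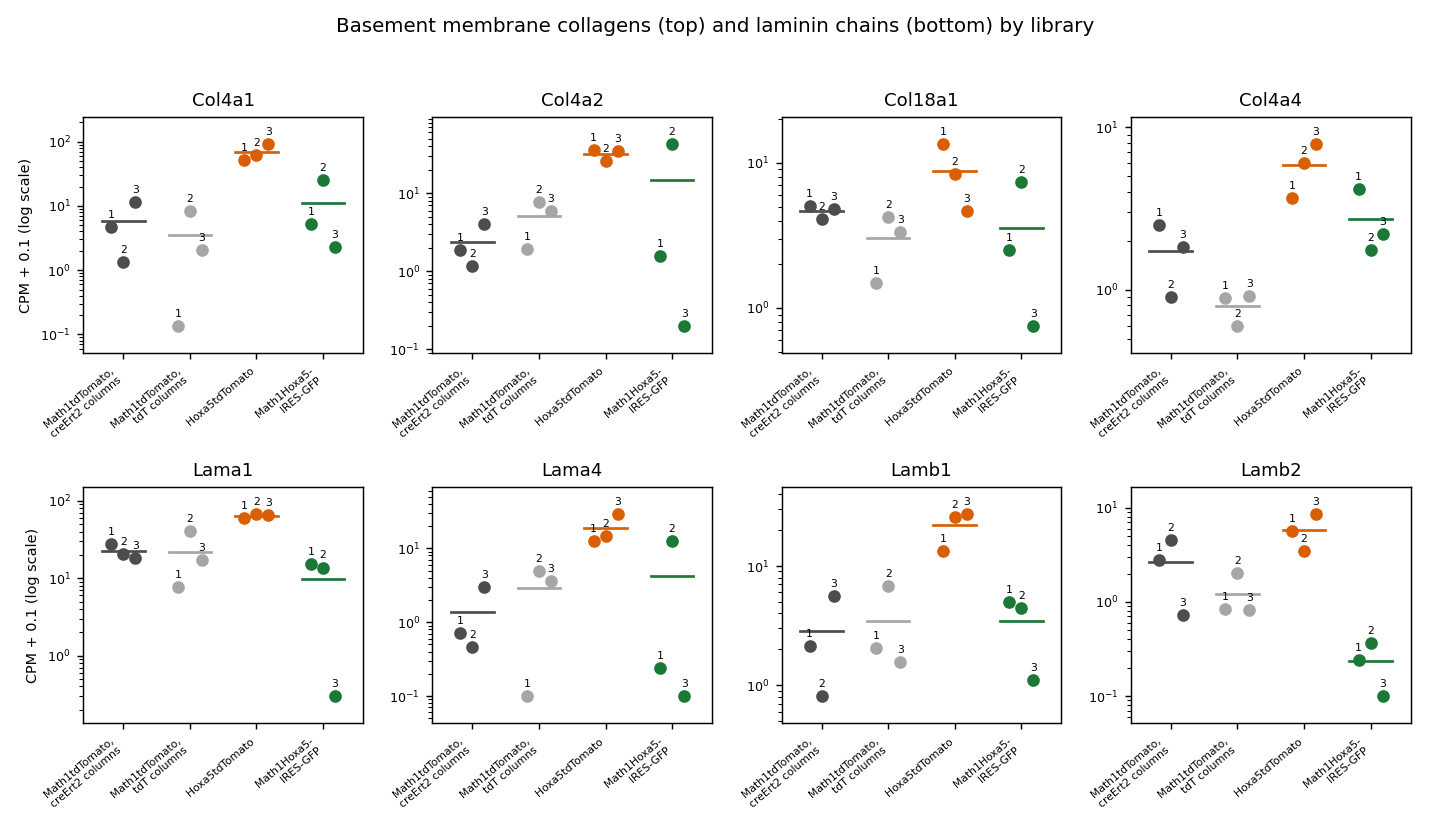
CPM + 0.1 (log axis) of 4 basement membrane collagens (top row) and 4 laminin chains (bottom row) in the 12 libraries, 1 numbered point per replicate and a line at the mean of each set of 3. The Hoxa5tdTomato points lie above all reference points for Col4a1, Col4a2, Col4a4, Lama1, Lama4 and Lamb1, and Lamb2 is near or under the detection floor in Math1Hoxa5-IRES-GFP.

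Among the laminins, Lamb1, the beta chain of the commonest laminins (RefSeq span chr12:31265146-31329644), rose in Hoxa5tdTomato. It was at 2.04, 0.711 and 5.52 CPM in the creErt2 references, 1.96, 6.70 and 1.46 in the tdT references and 13.2, 25.5 and 27.1 in Hoxa5tdTomato. The groups did not overlap, and the log2 change was 2.83 ± 0.64, adjusted p = 0.032. Within the creErt2 set it was 2.99 ± 0.85, adjusted p = 0.18. Math1Hoxa5-IRES-GFP stood at 4.84, 4.32 and 1.00 CPM, inside the range of the references.

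Lamb2, the beta chain of synaptic and vascular laminins (chr9:108479847-108490530), separated the 2 non-reference groups. It was at 5.51, 3.37 and 8.42 CPM in Hoxa5tdTomato and at 0.140, 0.270 and 0 CPM in Math1Hoxa5-IRES-GFP. The references lay between, at 2.66, 4.44 and 0.634 CPM in the creErt2 columns and 0.749, 1.90 and 0.729 in the tdT columns. Hoxa5tdTomato overlapped the references, and Math1Hoxa5-IRES-GFP lay below all of them. In Hoxa5tdTomato against Math1Hoxa5-IRES-GFP, Lamb2 was higher by 5.31 ± 1.30 on the log2 scale, adjusted p = 0.042. It was 1 of 2 members of 49 that passed in this comparison, beside 3.35% of all genes. The comparison crosses the 2 sets of unlike depth. With each group set against its own references, the changes differed by 4.12 ± 1.58, adjusted p = 0.58. Against the references the log2 change was 1.64 in Hoxa5tdTomato (adjusted p = 0.43) and -3.67 in Math1Hoxa5-IRES-GFP (adjusted p = 0.12). The difference between the 2 groups had an adjusted p of 0.062 without Math1Hoxa5-IRES-GFP 3. Without replicates 1 and 2 the remaining library is at 0.

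Lamc1, the gamma chain of most laminins, lay above the references in both groups. It was at 36.7 to 50.5 CPM in the references, 57.0, 59.1 and 75.0 in Hoxa5tdTomato and 65.2, 58.3 and 63.0 in Math1Hoxa5-IRES-GFP, without overlap. The log2 changes were 0.61 ± 0.19 (adjusted p = 0.12) and 0.57 ± 0.19 (adjusted p = 0.14). Neither passed, and DESeq2 called both. The latter was 0.56 (adjusted p = 0.19) without Math1Hoxa5-IRES-GFP 3 and 0.60 without replicates 1 and 2.

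The alpha chains, which carry most of the receptor-binding domains, differed in level and in spread. Lama1 was at 27.5, 20.7 and 18.1 CPM in the creErt2 references, 7.60, 40.8 and 17.0 in the tdT references, and 60.1, 67.0 and 64.9 in Hoxa5tdTomato. The Math1Hoxa5-IRES-GFP libraries were at 15.2, 13.7 and 0.201 CPM. The Hoxa5tdTomato libraries lay close together above all others, with a log2 change of 1.54 ± 0.64, adjusted p = 0.26. Lama4, the alpha chain of vessel walls, was at 0.622, 0.355 and 2.90 CPM in the creErt2 references, 0, 4.85 and 3.47 in the tdT references and 12.5, 14.4 and 28.8 in Hoxa5tdTomato. In Math1Hoxa5-IRES-GFP it was at 0.140, 12.3 and 0 CPM. The groups did not overlap in Hoxa5tdTomato (log2 change 3.18 ± 1.26, adjusted p = 0.23). Lama2, the muscle and nerve chain, was at 5.02 to 14.3 CPM in the references, 9.25, 21.5 and 13.8 in Hoxa5tdTomato and 13.7, 40.3 and 5.67 in Math1Hoxa5-IRES-GFP, with overlap in both.

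Lama3 was at 0.943 to 4.18 CPM in the references and 9.61 to 12.2 in Hoxa5tdTomato, without overlap (adjusted p = 0.10). Lamc3 was close to the floor, with 8 counts in the 6 references together and 0 in Math1Hoxa5-IRES-GFP. In Hoxa5tdTomato, the only group through which it passed the filter, it was at 1.16, 1.28 and 2.38 CPM, above every reference. Lama5, the alpha chain of mature membranes, stayed at or below 1.8 CPM in all 12 libraries. Of the 10 tested laminin chains, 9 were positive in Hoxa5tdTomato with a median of 1.59 and 1 call. Over the 8 that passed the filter without the Hoxa5tdTomato libraries, 7 were positive and the median was also 1.59. In Math1Hoxa5-IRES-GFP 6 were positive and 4 negative, median 0.36, with 0 calls. Laminin sums were 56.8 to 121 CPM in the references, 173, 207 and 231 in Hoxa5tdTomato, and 111, 134 and 71.4 in Math1Hoxa5-IRES-GFP.

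Markers of vessel cells moved with these sums. The summed level of 14 endothelial markers was 3.57 to 35.7 CPM in the references and 189, 132 and 245 in Hoxa5tdTomato. In Math1Hoxa5-IRES-GFP it was 8.38, 64.8 and 9.98 CPM. The summed level of 10 pericyte markers was 2.43 to 27.5 CPM in the references, 118, 119 and 249 in Hoxa5tdTomato and 17.6, 65.5 and 5.22 in Math1Hoxa5-IRES-GFP. Replicate 2 of Math1Hoxa5-IRES-GFP was thus the highest of its group for Col4a1, Col4a2, Lama4 and both marker sums. Of 12 tested endothelial markers, 2 passed in Hoxa5tdTomato against the references (Esam and Slc2a1, both higher). Of 9 tested pericyte markers 3 did (Rgs5, Abcc9 and Anpep, all higher), beside 1.73% of all genes. Anpep was at 0 counts in all 6 references, and Egfl7 and Erg, both endothelial, were at 0 in the 3 Math1Hoxa5-IRES-GFP libraries. The part of these cells in the rise of Col4a1 and Lamb1, and in the other non-overlapping members, was not tested.

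**Figure D4:**
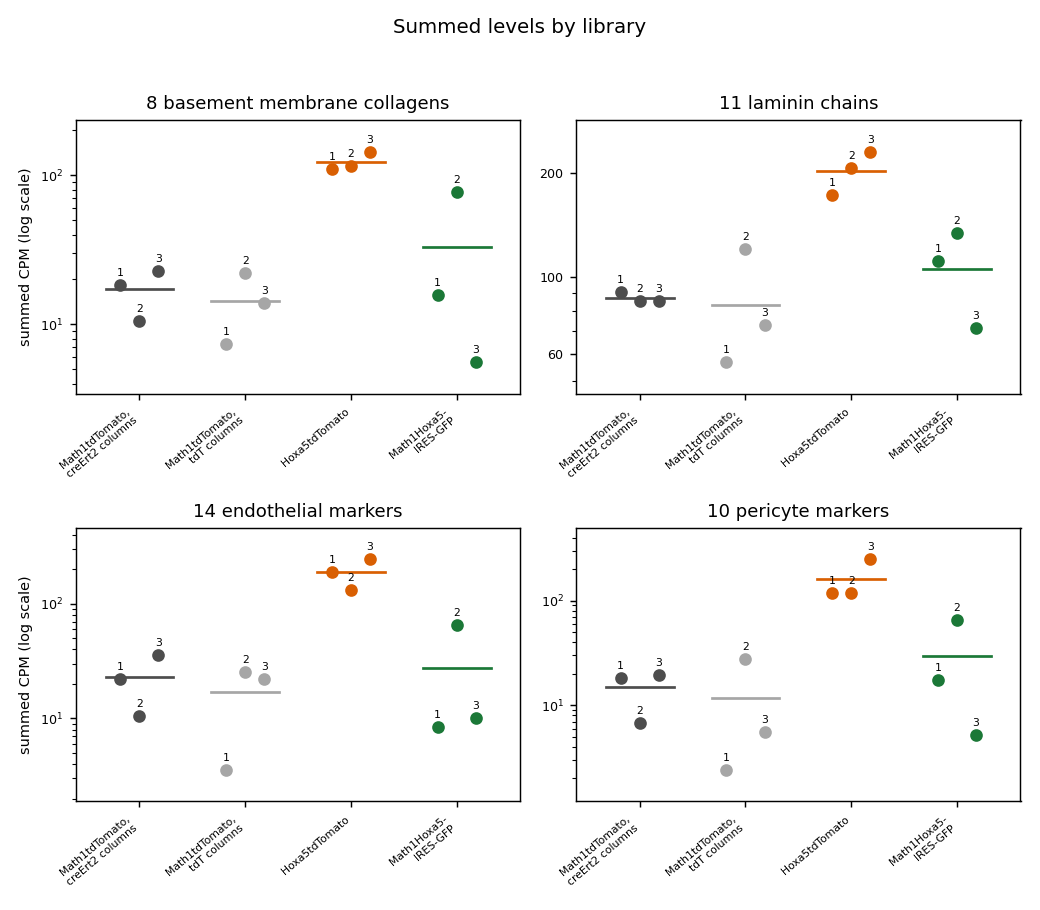
Summed CPM (log axis) of the basement membrane collagens, laminin chains, endothelial markers and pericyte markers in the 12 libraries, 1 numbered point per replicate and a line at the mean of each set of 3. All 4 sums are above every reference in the 3 Hoxa5tdTomato libraries, and replicate 2 is the highest Math1Hoxa5-IRES-GFP library in each panel.

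Markers of other cells gave the following sums. The 11 meningeal and fibroblast markers summed to 1.82 to 6.20 CPM in the references, 6.76 to 11.9 in Hoxa5tdTomato and 0 to 4.0 in Math1Hoxa5-IRES-GFP, and 0 of 5 tested passed in either comparison. Their sums in Hoxa5tdTomato thus also lay above every reference. Slc6a13 was at 0 in all 12 libraries, and Dcn and Aldh1a2 at 0 in all but the creErt2 references. The 10 astrocyte and radial glia markers summed to 498 to 562 CPM in the creErt2 references and 193 to 400 in the tdT references. In Hoxa5tdTomato they summed to 685, 443 and 396 CPM, replicates 2 and 3 thus below every creErt2 reference, with 0 of 9 called. In Math1Hoxa5-IRES-GFP they summed to 233 to 298 CPM, also with 0 called. Of the 9 tested, 8 were positive in Hoxa5tdTomato (median log2 change 0.64) and 1 in Math1Hoxa5-IRES-GFP (median -0.90). The 6 oligodendrocyte lineage markers summed to 39.6 to 88.3 CPM over all libraries. The 8 microglial markers summed to 0.321 to 12.2 CPM in the references, 54.0, 7.81 and 11.1 in Hoxa5tdTomato and 1.49 to 5.04 in Math1Hoxa5-IRES-GFP. Both lists had 0 called in both comparisons. All 6 tested of each list were positive in Hoxa5tdTomato, with medians of 0.55 and 1.68. In Math1Hoxa5-IRES-GFP 4 of the 6 oligodendrocyte lineage markers and all 6 microglial markers were negative, with medians of -0.64 and -2.11. The 9 neuronal markers summed to 5228 to 5604 CPM in the creErt2 references, 6088 to 6910 in the tdT references, 4734 to 5399 in Hoxa5tdTomato and 6226 to 7129 in Math1Hoxa5-IRES-GFP. In Hoxa5tdTomato against the 6 references 8 of the 9 were negative, with a median log2 change of -0.18 and 0 called. Pax6, Map2 and Meis2 lay below every reference there, 33.3% of the list beside 6.93% of all genes. Against the 6 references the neuronal list thus lay mostly on the lower side. The vessel, glial and microglial markers, basement membrane collagens and laminins lay mostly on the higher side. The creErt2 references differed from the tdT references likewise in 2 lists. There 7 of 9 neuronal markers were negative (median -0.32) and 7 of 9 astrocyte markers positive (median 0.68), while 5 of 6 microglial markers were negative. Against the creErt2 references alone, Hoxa5tdTomato had 6 of 9 neuronal markers negative (median -0.14) and 7 of 9 astrocyte markers positive (median 0.43). The part of any of these marker lists in the collagen and laminin results was not tested. In Math1Hoxa5-IRES-GFP 7 of the 9 neuronal markers were positive and 1 was called, Snap25, higher (adjusted p = 0.046), beside 1.84% of all genes. That call was lost without replicate 3 (adjusted p = 0.11). It was past the threshold in only a minority of the alternatives that keep more than 1 library of the group. Without replicates 1 and 2 the log2 change was 0.75, beside 0.60 with all 3.

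Fibrillar collagens form the tensile fibres of connective tissue, and 0 of the 10 tested passed in either comparison with the references. In Hoxa5tdTomato 7 were positive, with a median of 0.73, but 5 of the 10 passed the filter only through the Hoxa5tdTomato libraries. Over the other 5, 3 were positive and the median was 0.33. In Math1Hoxa5-IRES-GFP 4 of the 10 were positive, with a median of -0.22. Col11a1 was at 143, 148 and 193 CPM in the creErt2 references, 225, 119 and 154 in the tdT references, 138, 160 and 165 in Hoxa5tdTomato and 233, 210 and 173 in Math1Hoxa5-IRES-GFP. The groups overlapped, with log2 changes of -0.08 ± 0.19 and 0.33 ± 0.19. The former turned positive (0.08) when library size was the only scaling.

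Col5a1 was at 53.7, 73.6 and 94.6 CPM in the creErt2 references and 43.0, 64.9 and 44.7 in the tdT references. It was at 21.8, 57.6 and 58.6 in Hoxa5tdTomato, with overlap. In Math1Hoxa5-IRES-GFP it was at 20.1, 37.3 and 24.3 CPM, below every reference. The log2 change there was -1.20 ± 0.35, adjusted p = 0.086, and DESeq2 called it. Without replicate 3 of that group the change was -1.12 (adjusted p = 0.17), and without replicates 1 and 2 it was -1.35. Col2a1, the cartilage collagen, was at 4.53, 2.40 and 0.362 CPM in the creErt2 references and 6.28, 1.22 and 7.20 in the tdT references. It was at 2.13, 3.23 and 8.51 CPM in Hoxa5tdTomato and 1.72, 4.05 and 2.41 in Math1Hoxa5-IRES-GFP, with overlap and without a call.

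The fibroblast collagens of type I and III were low. Col1a1 was at 0 to 0.725 CPM in the references and 3.20, 4.65 and 8.42 in Hoxa5tdTomato, without overlap. The log2 change was 3.97 ± 1.33, adjusted p = 0.15. Col1a1 passed the filter only through the Hoxa5tdTomato libraries, as did Col1a2, Col5a3 and Col27a1. In Math1Hoxa5-IRES-GFP Col1a1 was at 1.30, 0 and 0 CPM. Col1a2 was at 0 to 1.14 CPM in the references, 3.82, 5.86 and 1.65 in Hoxa5tdTomato and 0.373, 5.49 and 0 in Math1Hoxa5-IRES-GFP. Col3a1 had counts only in creErt2 reference 3 (0.634 CPM) and in the 3 Hoxa5tdTomato libraries (0.356 to 1.46 CPM). Col27a1 was at 0 to 0.181 CPM in the references and 1.42, 0.269 and 1.10 in Hoxa5tdTomato, with values near the floor. It was at 0, 0 and 0.752 CPM in Math1Hoxa5-IRES-GFP. Col5a3 had 51 counts over the references and 0 in Math1Hoxa5-IRES-GFP, at least 10.1-fold lower by the floor of 3 counts over the group. In the references Col5a3 ranged from 0 in 3 libraries to 1.24 CPM, so the groups overlapped. It was at 3.56, 0.135 and 0.915 CPM in Hoxa5tdTomato.

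Among the fibril-associated collagens, Col14a1 was higher in Math1Hoxa5-IRES-GFP than in its tdT references. Col14a1 (chr15:55307644-55520803) is a fibril-surface collagen of dense connective tissue. It was at 0.178, 1.86 and 0.729 CPM in the tdT references and 41.8, 16.1 and 13.6 in Math1Hoxa5-IRES-GFP. In the creErt2 references it was at 1.51, 0.80 and 16.4 CPM, and in Hoxa5tdTomato at 36.0, 20.1 and 31.8. Hoxa5tdTomato lay above all 6 references, while in Math1Hoxa5-IRES-GFP 2 replicates lay below creErt2 reference 3. Within the tdT set it was higher by 4.70 ± 1.04 on the log2 scale, adjusted p = 0.043, the only call among 49 members in that contrast, beside 0.862% of all genes. That call was lost with the replicate numbers as a block (adjusted p = 0.061). It was kept without replicate 3 of the group (adjusted p = 0.0075). Without replicates 1 and 2, which leaves 1 library in the group, the log2 change was 3.91. Leaving out any 1 of Math1Hoxa5-IRES-GFP 1 or 2, the tdT references or the Hoxa5tdTomato libraries ended the call, with adjusted p up to 0.21. Against all 6 references the changes were 2.77 ± 0.88 (adjusted p = 0.12) and, in Hoxa5tdTomato, 3.07 ± 0.88 (adjusted p = 0.091). Without creErt2 reference 3 both passed.

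Col9a3 was at 11 to 34.6 CPM in the references, 37.4, 42.0 and 39.4 in Hoxa5tdTomato and 39.5, 25.0 and 62.1 in Math1Hoxa5-IRES-GFP. The former group lay above all references and the latter overlapped them, with log2 changes of 0.85 ± 0.33 and 0.94 ± 0.33 (adjusted p = 0.22 and 0.16). Col9a3 overlaps Tcfl5 in the annotation. Col12a1 was at 69.9, 52.2 and 47.4 CPM in the creErt2 references and 33.2, 48.0 and 19.6 in the tdT references. It was at 24.2, 45.3 and 30.4 in Hoxa5tdTomato and 62.6, 65.3 and 49.7 in Math1Hoxa5-IRES-GFP, so that the 2 groups lay on opposite sides of the references of their own set. Against all 6 references they overlapped (log2 changes -0.43 and 0.40). Col19a1, a fibril-associated chain found in some neurons, was at 0.267 to 1.18 CPM in the references, 2.76, 6.46 and 2.10 in Hoxa5tdTomato and 0.279, 9.17 and 0 in Math1Hoxa5-IRES-GFP. Col9a1 was at 2.40, 0.673 and 0.0915 CPM in Hoxa5tdTomato and 0, 0.18 and 0.0502 in Math1Hoxa5-IRES-GFP, with 4 of 6 references at 0 and the highest at 0.643. None of the 8 tested fibril-associated collagens passed in either comparison with the 6 references: 6 were positive in Hoxa5tdTomato (median 0.92) and 5 in Math1Hoxa5-IRES-GFP (median 0.67). Over the 6 that passed the filter without the Hoxa5tdTomato libraries, 4 were positive in that group, again with a median of 0.92.

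The summed level of the membrane-spanning collagens was lower in the 3 Math1Hoxa5-IRES-GFP libraries than in every reference. Col25a1, a neuronal collagen known for its part in motor innervation and for an ectodomain found in amyloid plaques, lies at chr3:130180358-130599884. It was at 24.9, 18.0 and 12.2 CPM in the creErt2 references, 15.6, 17.4 and 10.8 in the tdT references, 22, 15.8 and 17.1 in Hoxa5tdTomato and 2.00, 8.32 and 3.66 in Math1Hoxa5-IRES-GFP. The last group lay below the other 9 libraries. Col25a1 was higher in Hoxa5tdTomato than in Math1Hoxa5-IRES-GFP by 1.97 ± 0.51 on the log2 scale, adjusted p = 0.046. With each group set against its own references, the changes differed by 1.64 ± 0.71, adjusted p = 0.59. Against the references the change in Math1Hoxa5-IRES-GFP was -1.82 ± 0.47, adjusted p = 0.056, and within the tdT set -1.65 ± 0.51, adjusted p = 0.17. The difference between the 2 groups was 1.82 (adjusted p = 0.080) without Math1Hoxa5-IRES-GFP 3 and 2.33 without replicates 1 and 2.

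**Figure D5:**
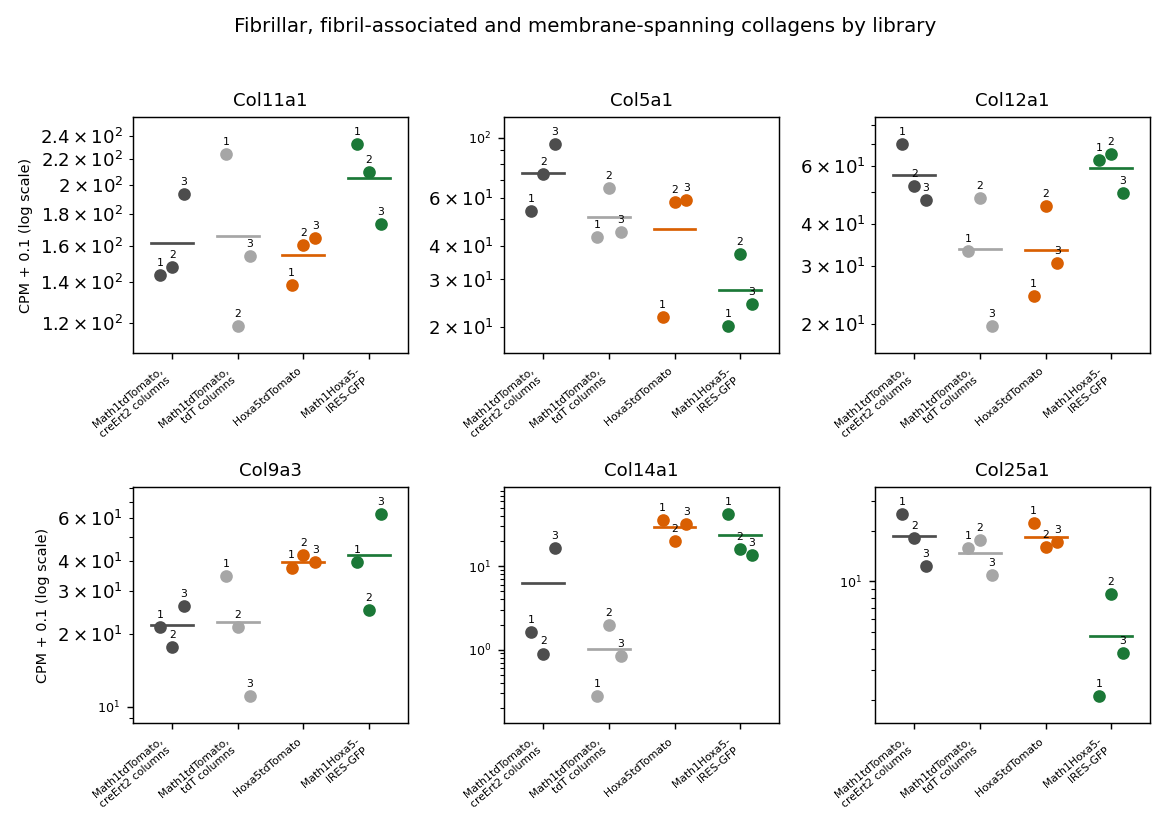
CPM + 0.1 (log axis) of 6 collagens outside the basement membrane in the 12 libraries, 1 numbered point per replicate and a line at the mean of each set of 3. Col25a1 and Col5a1 are lowest in the 3 Math1Hoxa5-IRES-GFP libraries (for Col5a1 together with Hoxa5tdTomato 1), and creErt2 reference 3 stands apart from the other references for Col14a1.

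Col17a1, the hemidesmosome collagen of skin, was at 1.33, 3.91 and 4.98 CPM in the creErt2 references, 0.357, 0.996 and 1.16 in the tdT references and 0.0889, 0.606 and 1.28 in Hoxa5tdTomato. Math1Hoxa5-IRES-GFP held 1 count in 3 libraries against 173 in the references, a level 103-fold lower over the summed library sizes. The interval of 18.2 to 4087 (exact binomial, 95%) covers counting error only and leaves out the spread between libraries. The test against the references had an adjusted p of 0.056, which was 0.12 without replicate 3. Within the tdT set, whose references were the lower ones, the log2 change was -5.20 ± 1.57, adjusted p = 0.16. Without replicates 1 and 2 the remaining library is at 0. Col23a1, another membrane collagen, was at 0.107 to 9.68 CPM in the references, 7.47, 9.97 and 5.03 in Hoxa5tdTomato and 1.91, 1.21 and 0 in Math1Hoxa5-IRES-GFP, without a call. Summed over the 4 genes, the class was at 14.3 to 35.9 CPM in the references, 23.4 to 30.0 in Hoxa5tdTomato and 3.96, 9.53 and 3.66 in Math1Hoxa5-IRES-GFP.

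The beaded, network-forming and further collagens gave 0 calls among 11 tested in either comparison. In Hoxa5tdTomato 9 were positive, with a median of 0.95, but 6 of the 11 passed the filter only through the Hoxa5tdTomato libraries. Over the other 5, 3 were positive and the median was 0.21. In Math1Hoxa5-IRES-GFP 5 of the 11 were positive, with a median of -0.57. Col6a6, the highest of the beaded-filament type VI chains here, was at 10.7 to 23.3 CPM in the references, 19.7, 19.2 and 13.7 in Hoxa5tdTomato and 11, 14.5 and 4.92 in Math1Hoxa5-IRES-GFP, with overlap. Its known partners Col6a1 and Col6a2 were at 0.0920 and 0.0768 RPKM in the references, beside 2.02 for Col6a6. Col26a1 was at 2.04, 2.67 and 7.15 CPM in the creErt2 references and 5.35, 12.5 and 14.9 in the tdT references, a range that held 7.92, 8.48 and 9.97 in Hoxa5tdTomato and 10.2, 5.35 and 7.72 in Math1Hoxa5-IRES-GFP. Col8a1, a network collagen of vessel and eye membranes, ranged over the references from 3.35 to 6.56 CPM. It was at 6.67, 3.77 and 0.732 CPM in Hoxa5tdTomato and 4.52, 1.93 and 2.66 in Math1Hoxa5-IRES-GFP. Col6a5 was at 1.69, 2.69 and 1.37 CPM in Hoxa5tdTomato, above all references, whose highest value was 1.36, and at 0, 0.450 and 0 in Math1Hoxa5-IRES-GFP. It passed the filter only through the Hoxa5tdTomato libraries. Col10a1, the growth plate collagen, was at 0.712, 3.10 and 0.183 CPM in Hoxa5tdTomato and at most 0.80 in the references. It was at 0.745, 0.450 and 0 CPM in Math1Hoxa5-IRES-GFP, and it overlaps Nt5dc1 in the annotation. Col28a1 had 42 counts over the references and 0 in Math1Hoxa5-IRES-GFP, at least 8.33-fold lower by counting error alone. In the references it ranged from 0 to 1.04 CPM, so these groups overlapped (adjusted p = 0.19 by edgeR). It was at 0.978, 0.269 and 0.915 CPM in Hoxa5tdTomato. Col6a1 was at 0.233, 0 and 0 CPM in Math1Hoxa5-IRES-GFP and 0.356, 1.08 and 1.56 in Hoxa5tdTomato against 0 to 0.799 in the references.

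The 2 changes were also compared on separate references. Hoxa5tdTomato against the creErt2 references gave 0 calls among the 49 members, beside 0.557% of all genes. At an unadjusted p under 0.05 there were 10 of the 49 members and 1312 of the 14732 genes. The creErt2 and tdT references differed in 0 of 49 members, beside 1.34% of all genes. There 4 members and 1894 genes had an unadjusted p under 0.05, and DESeq2 called 1 member, Col14a1. The difference between the change in Hoxa5tdTomato and the change in Math1Hoxa5-IRES-GFP, each within its set, gave 0 calls among the members and 0% over all genes (edgeR). At an unadjusted p under 0.05 there were 9 members and 1181 genes, and DESeq2 called 0 members and 54 genes. A difference between the 2 changes was therefore not shown for Col4a1 (1.90 ± 1.49 on the log2 scale) or Lamb1 (2.98 ± 1.14). Nor was it shown for Lamb2 (4.12 ± 1.58) or Col25a1 (1.64 ± 0.71), the 2 members called directly between these groups.

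The calls depended on single libraries. The 2 calls in Hoxa5tdTomato against the references, Col4a1 and Lamb1, became 0 without any 1 of Hoxa5tdTomato 1, 2 or 3, creErt2 reference 1 or 2, or tdT reference 3. Without tdT reference 1 only Col4a1 remained, and without Math1Hoxa5-IRES-GFP 3 there were 6, adding Col14a1, Col4a2, Lama1 and Lama3. The log2 change of Col4a1 stayed between 3.58 and 4.40 and that of Lamb1 between 2.63 and 3.28 over 20 alternatives, with adjusted p from 0.0067 to 0.27 and from 0.0013 to 0.18. Lamb2 and Col25a1, the 2 calls between the non-reference groups, became 0 without any 1 Hoxa5tdTomato library or tdT reference 2. Only Lamb2 remained without creErt2 reference 1, 2 or 3 or tdT reference 3. Without Math1Hoxa5-IRES-GFP 1 the calls were Lamb2 and Col1a1, without Math1Hoxa5-IRES-GFP 3 neither passed and Lama1 did, and without Math1Hoxa5-IRES-GFP 2 there were 4 calls. In Math1Hoxa5-IRES-GFP against the references the 0 calls became 1 without creErt2 reference 3 (Col14a1), tdT reference 1 (Col17a1) or Math1Hoxa5-IRES-GFP 2 (Col25a1), and stayed 0 without Math1Hoxa5-IRES-GFP 3. With only replicate 3 left in that group its spread is assumed to be that of the other groups, so calls in that setting are not counted here.

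Partners and makers of the matrix were described by the same counts. Of 14 basement membrane partners 13 were tested. Over all genes tested, 1.73% passed in Hoxa5tdTomato and 1.84% in Math1Hoxa5-IRES-GFP. In Hoxa5tdTomato 1 passed, Hspg2, the heparan sulfate proteoglycan perlecan, at 11.4, 22.2 and 40.5 CPM against 1.96 to 7.55 in the references (adjusted p = 0.021). In Math1Hoxa5-IRES-GFP 2 passed. Npnt, the integrin ligand nephronectin, was at 11.9, 5.44 and 32.2 CPM against 0.272 to 1.76 in the references (adjusted p = 0.0059). Smoc2, a calcium-binding matrix protein, was at 0.140, 0.405 and 0 CPM against 2.21 to 6.16 (adjusted p = 0.039). Without replicate 3 of the group the adjusted p was 0.038 for Npnt and 0.040 for Smoc2. Without replicates 1 and 2 the log2 change of Npnt was 5.35, beside 4.38 with all 3, and Smoc2 is at 0 in the remaining library. Among the alternatives that keep more than 1 library of the group, Npnt passed in most and Smoc2 in a minority. Hspg2 passed in 16 of 20 alternatives and was lost without Hoxa5tdTomato 2 or 3. Against the creErt2 references alone its log2 change was 2.46 (adjusted p = 0.17). Within the tdT set neither Npnt (adjusted p = 0.076) nor Smoc2 (adjusted p = 0.11) passed. Agrn, agrin, which neurons make for synapses, was the highest partner at 30.8 RPKM in the references and was not called.

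Of 30 collagen-processing enzymes and chaperones 27 were tested, with 0 calls in Hoxa5tdTomato and 2 in Math1Hoxa5-IRES-GFP, beside 1.73% and 1.84% of all genes. At an unadjusted p under 0.05 there were 4 in Hoxa5tdTomato, beside 2148 of all 14732 genes. Tll1, a tolloid protease that trims procollagen ends, rose to 15.6, 13.3 and 35.1 CPM from 1.42 to 3.08 in the references (adjusted p = 0.00090). It was at 10.5, 7.47 and 5.40 in Hoxa5tdTomato (adjusted p = 0.0505). Adamts2, the procollagen N-proteinase, fell to 6.05, 8.5 and 6.57 CPM from 22.5 to 42.8 (adjusted p = 0.0029). In Hoxa5tdTomato it was at 16.0, 11.9 and 18.8 (adjusted p = 0.15). Both Tll1 and Adamts2 also passed within the tdT set, where 0.862% of all genes did. P4ha2, a prolyl hydroxylase subunit, did so too (adjusted p = 0.043), at 1.96, 9.31 and 2.26 CPM against 0 to 0.129. The creErt2 references held 0.977 to 3.02 CPM of P4ha2, which overlaps that group. Against the 6 references, Tll1 and Adamts2 passed without replicate 3 (adjusted p = 0.0034 and 0.0038). Without replicates 1 and 2 their log2 changes were 4.05 and -2.19. With the replicate block both were lost (adjusted p = 0.060 and 0.063). Within the tdT set P4ha2 passed without replicate 3 (adjusted p = 0.010), but in only a minority of the alternatives that keep more than 1 library of the group. Its log2 change there without replicates 1 and 2 was 5.15. The highest of this list in the references were Sec23a (41.1 RPKM) and Mia3 (19.7), which act in procollagen export, and P4hb (37.4), the hydroxylase partner, and none of the 3 was called. Of 20 receptors for collagens and laminins 18 were tested, with 0 calls in Hoxa5tdTomato and 0 in Math1Hoxa5-IRES-GFP. At an unadjusted p under 0.05 there were 3 and 1, beside 2148 and 2456 of all 14732 genes. Dag1, dystroglycan, was lower in the creErt2 than in the tdT references (adjusted p = 0.016), at 92.4, 98.4 and 125 against 236, 185 and 189 CPM. It was the only 1 of the 18 called there, beside 1.34% of all genes. In the references Adgrg1, named Gpr56 in the table, a type III collagen receptor of neural progenitors, was at 49.4 RPKM, Dag1 at 33.5 and the integrin subunit Itgb1 at 26.1.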

How the data were processed

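Raw counts of reads over 23079 genes and 12 libraries were deposited by the authors in 1 table, beside a gene length, and are not normalized, per the file headers and the values. Base calling with bcl2fastq 1.8.4 and the mm10 build are named in the submitters' processing notes. The aligner and counting tool: not given in the sources used here. All 55 members matched RefSeq (GRCm38.p6) by Entrez number. From the counts, CPM was computed on TMM-scaled library sizes and RPKM from it with the deposited gene length. Genes were kept by filterByExpr at a minimum count of 10 (14732 genes). They were tested with edgeR 4.0.16 (limma 3.58.1, R 4.3.3), quasi-likelihood fit, 1 mean per label group over all 12 libraries, and p-values adjusted by Benjamini-Hochberg over all genes kept. A fit of 4 groups split the references by column name. DESeq2 1.42.0 was an alternative. The scripts were tested on simulated data. Total counts were 9973484 to 29820776. Replicates differed beyond sampling noise, so none was counted as a duplicate. Values by library, with the references in places as a range, were given for members past an adjusted p of 0.05, the 3 highest per class by RPKM and the 2 with the largest change per class and comparison. Values of 1 member are not reported here. Members and gene lists were chosen with earlier results of these data known.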

Additional observations from a re-analysis of the deposited data

Results flagged for a closer look

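In the 6 Math1tdTomato libraries, 33 members named above were checked for a single library far from the others, and 4 had one by Dixon's criterion. Its rate of about 1 in 20 holds for normally distributed values. These CPM hold zeros and the members were chosen partly by their changes, so the 4 are not set against that rate. Col14a1 was at 16.4 CPM in creErt2 reference 3. Lamc3 was at 0.634 CPM and Col10a1 at 0.80 CPM in creErt2 references 3 and 2. Col1a2 was at 1.14 CPM in tdT reference 1. The last 3 values are close to the detection floor.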

How the results depend on the processing

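The number of members called in Hoxa5tdTomato against the references was 2. It was 0 in the fit of 4 groups, 0 with the replicate block, 5 with DESeq2, 7 with only those 2 groups, 0 to 6 with 1 library left out, and, in an alternative added after seeing the data, 7 without Math1Hoxa5-IRES-GFP replicates 1 and 2. In Math1Hoxa5-IRES-GFP it was 0: 1 in the fit of 4 groups, 5 with DESeq2, 1 at a minimum count of 50, 0 to 1 with 1 library left out, and 8 without replicates 1 and 2. Between the 2 groups it was 2: 1 with library size as the only scaling, 5 with DESeq2, 0 with only those 2 groups, 0 to 4 with 1 library left out, and 15 without replicates 1 and 2. Between the 2 sorts of references it was 0, and 1 with DESeq2. For the difference of the changes it was 0 in all settings run. The cause of these moves was not tested. With library size as the only scaling, the share of higher among all calls went from 48.6% to 70.8%, from 70.5% to 52.8% and from 27.4% to 78.4% in the 3 comparisons, and the median of all genes to 0.16, -0.13 and 0.30. The numbers do not pair the samples: deviations of same-numbered libraries correlated at -0.039 to 0.045, and not every library correlated best with its own number. With the replicate block, the calls over all genes were 72 and 77, against 82 and 127 in the fit of 4 groups without it, and the only member call, Col14a1, was lost.

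Of 1561 log2 values of 81 single results under the alternatives, 1403 kept direction and side of the threshold, 98 fell below it, 24 passed it and 36 changed sign. These counts include the values without Math1Hoxa5-IRES-GFP replicates 1 and 2. In Hoxa5tdTomato the sign changed with 1 library left out for Col4a5 (range over libraries left out -0.77 to 0.79), Col11a1 (-0.14 to 0.052), Col2a1 (-0.45 to 0.67), Col25a1 (-0.0022 to 0.30) and Col8a1 (-1.17 to 0.032), in the fit of 4 groups for Col25a1 (-0.0063), and with library size as the only scaling for Col11a1 (0.080). In Math1Hoxa5-IRES-GFP it changed with 1 library left out for Col18a1 (-1.27 to 0.39), Col4a1 (-0.29 to 1.76), Col4a2 (-2.19 to 2.56), Lama4 (-4.70 to 1.60), Lamb1 (-0.20 to 0.58), Col1a1 (-5.55 to 0.94), Col1a2 (-0.87 to 3.41), Col27a1 (-2.97 to 2.82), Col19a1 (-2.24 to 2.76), Col10a1 (-0.081 to 1.55) and Col26a1 (-0.19 to 0.38). The library was replicate 2 for Col4a1, Col4a2, Lama4, Col1a2 and Col19a1. It also changed in the fit of 4 groups for Col18a1 (0.25) and Col26a1 (-0.49), with counts thinned to the lowest total for Col18a1 (0.048), with the replicate block for Col4a2 (-0.54), Lama4 (-0.21), Col1a1 (-1.37), Col19a1 (-0.54) and Col26a1 (-0.44), and with library size as the only scaling for Col26a1 (-0.043). Depth limits the members near 3 counts, 0.107 to 0.274 CPM.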
